A study of Mus musculus with 18 samples.

Results

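Cultures of mouse embryonic stem cells, differentiated towards heart muscle, were compared between day 15 (D15) and day 10 (D10) of differentiation. There were 3 poly(A) RNA libraries on each day, 6 of the 18 libraries of the series. All 6 came from untreated TBX5-FTA cells (strain A2Lox.cre, stem cells built to accept transgenes), and the submitters called the cells of both harvests immature cardiomyocytes. All libraries came from this 1 line, and the labels describe no sorting step, so a library may hold any cell type of the culture. By the labels, D15 and D10 differ in the day of harvest alone. The other 12 libraries, from D5, D6, D7 and D8, entered the fit for the estimate of spread and are described only as earlier levels of the genes named here. The series concerns Hedgehog signalling and the timing of differentiation, and this comparison sets its last harvest against the one before.

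Heart muscle cells contract through the sarcomere, an array of myosin and actin filaments that is switched on by calcium released from the sarcoplasmic reticulum. As the fetal heart matures, muscle cells are known to swap fetal for adult isoforms of sarcomere proteins, to enlarge their calcium stores, to move from glucose towards fatty acids as fuel and to divide less. Cultures of this kind are also known to yield cells of other lineages of the heart, such as fibroblasts, endothelial cells and the epicardium, the outer sheet of the heart.

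Total counts were 6129209, 6121454 and 6831683 in the D15 libraries and 6506504, 5805681 and 5257601 in the D10 libraries, and values per library are given in this order throughout. Levels are given as CPM, the counts of a gene relative to its library total after TMM scaling, and error terms are SD over the 3 libraries of a day or the SE of a log2 fold change. Calls rest on an adjusted p under 0.05 from edgeR's quasi-likelihood test with Benjamini-Hochberg adjustment over 13116 tested genes of the 23337 in the table. No label says that libraries of a day stem from separate cultures, so p-values reflect the spread between these libraries, which may be technical. Every pair of libraries of a day differed by more than sampling noise. Sarcomere genes, which define heart muscle, were present in all 6 libraries at 0.522% to 1.46% of counts, beside 4.15% to 7.30% for fibroblast and matrix genes. The use of strand in counting is not given in the sources used here, and genes whose exons overlap those of a neighbour, listed with the methods, have uncertain values.

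Between D15 and D10, 6662 of 13116 genes (50.8%) were called, 3467 higher at D15 (26.4%) and 3195 lower (24.4%). Rises were larger than falls: the called genes had a median log2 fold change of 0.75 among those higher at D15 and -0.53 among those lower, and 246 rose but 115 fell by more than 8-fold. Tested against a fold of 2, 1125 genes (8.58%) remained, of which 774 (5.9%) were higher and 351 (2.68%) were lower at D15. The median over all tested genes was -0.01. The root mean square difference in log2 CPM between libraries of D15 and D10 averaged 0.987, against 0.387 among D15 libraries and 0.396 among D10 libraries. Of the 3467 genes called higher, 2966 (85.5%) had their highest mean of the 6 days at D15, and of the 3195 called lower, 2506 (78.4%) had their lowest mean there.

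**Figure D1:**
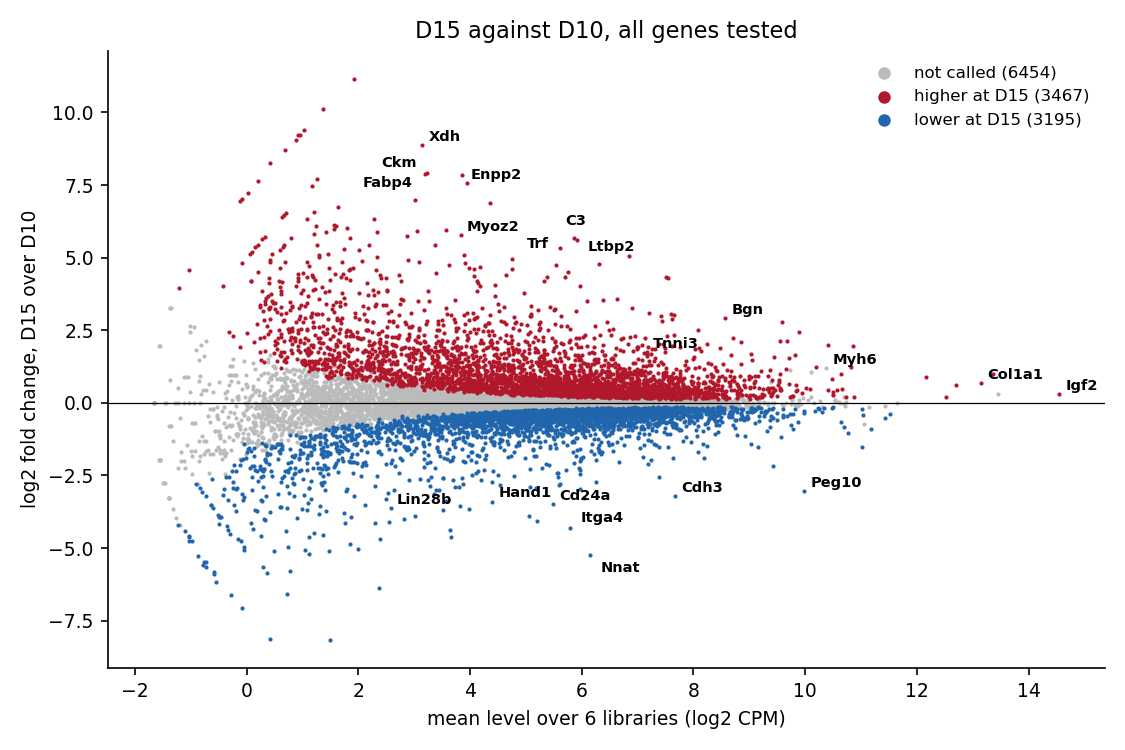
Log2 fold change, D15 over D10, against mean level in log2 CPM over the 6 libraries, with 1 point per tested gene and some named genes labelled. Red points are the 3467 genes called higher at D15, blue points the 3195 called lower and grey points those not called. The points reach farther above the zero line than below it among genes of middle level.

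Among called genes with a mean of at least 3 log2 CPM over the 6 libraries, the 15 largest rises ran from a log2 fold change of 8.87 to 5.07. Xdh, the xanthine dehydrogenase gene of purine breakdown (GRCm38 chromosome 17, 73883895 to 73950196), stood at 134, 151 and 144 CPM in D15 libraries and at 0, 0.691 and 0.193 CPM in D10 libraries. The D15 values lay close together and far above every D10 value, a log2 fold change of 8.87 ± 0.29 (adjusted p = 2.03e-16). It rests on 5 counts over the D10 libraries, and was 8.23 without the first D10 library and 10.4 without the second. Ckm, the creatine kinase of muscle (chromosome 7, 19404776 to 19422841), had 134, 122 and 89.9 CPM at D15, against 0.307, 0.518 and 0.580 CPM at D10 (7.91 ± 0.27, adjusted p = 5.26e-18). Fabp4, a fatty acid carrier of small vessels and fat cells (chromosome 3, 10204088 to 10208576), had 143, 106 and 87.4 CPM at D15, against 0.307, 0.691 and 0.387 CPM at D10 (7.87 ± 0.31, adjusted p = 7.37e-12). All 3 tested genes of the fat cell list were called higher, Fabp4 itself and the factor genes Cebpb (2.22 ± 0.21) and Cebpa (2.25 ± 0.59). The list took 0.0137 ± 0.00244% of counts at D15 and 0.000855 ± 0.000141% at D10. Of its members under the filter, Pparg had 32 counts at D15 and 8 at D10, Adipoq and Plin1 had none at D15 and 2 and 1 at D10, and Cfd and Lep had none on either day. The part of fat cells in the level of Fabp4 was not tested. Enpp2, which encodes the enzyme autotaxin that makes the lipid signal lysophosphatidic acid (chromosome 15, 54838901 to 54952892), had 189.6 ± 9.47 CPM at D15 and 0.808 ± 0.143 CPM at D10, 7.85 ± 0.20 log2 units apart. The adhesion receptor gene Adgrd1, under its older name Gpr133, had 187 ± 5.02 CPM at D15 and 0.962 ± 0.269 CPM at D10.

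Also among the 15 largest rises, Scn3b, a beta subunit of the sodium channel, had 75.7 ± 6.89 CPM at D15 and 0.570 ± 0.256 CPM at D10. Lrat, the enzyme that stores retinol as its ester, had 56.3 ± 9.03 CPM at D15 against 0.937 ± 0.363 CPM at D10. C3, the central complement protein, was 51.7-fold higher, at 401, 382 and 459 CPM in D15 libraries and 8.90, 6.04 and 9.09 CPM in D10 libraries (5.69 ± 0.16, adjusted p = 1.38e-17). Ltbp2, which binds elastic microfibrils, was 47.8-fold higher, at 418 ± 55.0 CPM at D15 and 8.73 ± 2.73 CPM at D10. Pappa2, a protease that cleaves an IGF binding protein, had 83.3 ± 5.92 CPM at D15 and 2.41 ± 0.750 CPM at D10. Fam110c and Fam180a rose by 6.88 ± 0.17 and 5.44 ± 0.26. Trf, the transferrin gene, of whose 50-base stretches 40.6% are unique, had 312 ± 60.1 CPM at D15 and 7.60 ± 1.5 CPM at D10. Beside it the liver gene Alb, under the expression filter, had 167 counts over the D15 libraries against 6 over the D10 libraries. The filter keeps a gene with that count spread evenly over the D15 libraries, so Alb was uneven among them. The endoderm factor gene Hnf4a had 1 count at D15 against 0 at D10. The part of such cells in the level of Trf was not tested.

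Under the same level rule, the 15 largest falls ran from a log2 fold change of -5.24 to -3.21. Nnat, an imprinted gene for the membrane protein neuronatin (chromosome 2, 157560078 to 157562522), had 7.59, 11.9 and 15.2 CPM at D15, against 392, 449 and 481 CPM at D10. Every D15 value lay under every D10 value, and the gene fell by 5.24 ± 0.14 (adjusted p = 2.86e-17), or 38.1-fold. Itga4, the alpha 4 integrin that binds VCAM1 and fibronectin (chromosome 2, 79255426 to 79333123), had 15, 11.9 and 10.1 CPM at D15, against 267, 239.7 and 227 CPM at D10 (-4.32 ± 0.19, adjusted p = 2.44e-11). Cdh3, which encodes P-cadherin of epithelial junctions (chromosome 8, 106510891 to 106557297), had 62.3, 59.7 and 78.9 CPM at D15, against 572, 601 and 695 CPM at D10 (-3.21 ± 0.09, adjusted p = 1.36e-21). The desmosome cadherin gene Dsc2 fell by 3.29 ± 0.09, to 21.0 ± 2.88 CPM at D15, against 207 ± 17.5 CPM at D10. Grhl3, an epithelial transcription factor gene, had 2.49 ± 1.28 CPM at D15 and 61.6 ± 2.51 CPM at D10. Lama1, the laminin chain of embryonic basement membranes, had 8.94 ± 3.12 CPM at D15 and 153 ± 43.3 CPM at D10. Hsd11b2, the enzyme that inactivates glucocorticoids, and Cd24a, a surface glycoprotein of immature cells, fell by 3.90 ± 0.25 and 3.49 ± 0.12. The remainder of the 15 largest falls, Rimklb, Igsf11, Shisa3, Fndc3c1, Fgfr3, Hand1 and Col25a1, ran from -4.37 to -3.38.

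Gene lists, 30 in all, are described below by how many tested members were called and by their median log2 fold change, beside the 26.4% higher, 24.4% lower and median of -0.01 over all tested genes.

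**Figure D2:**
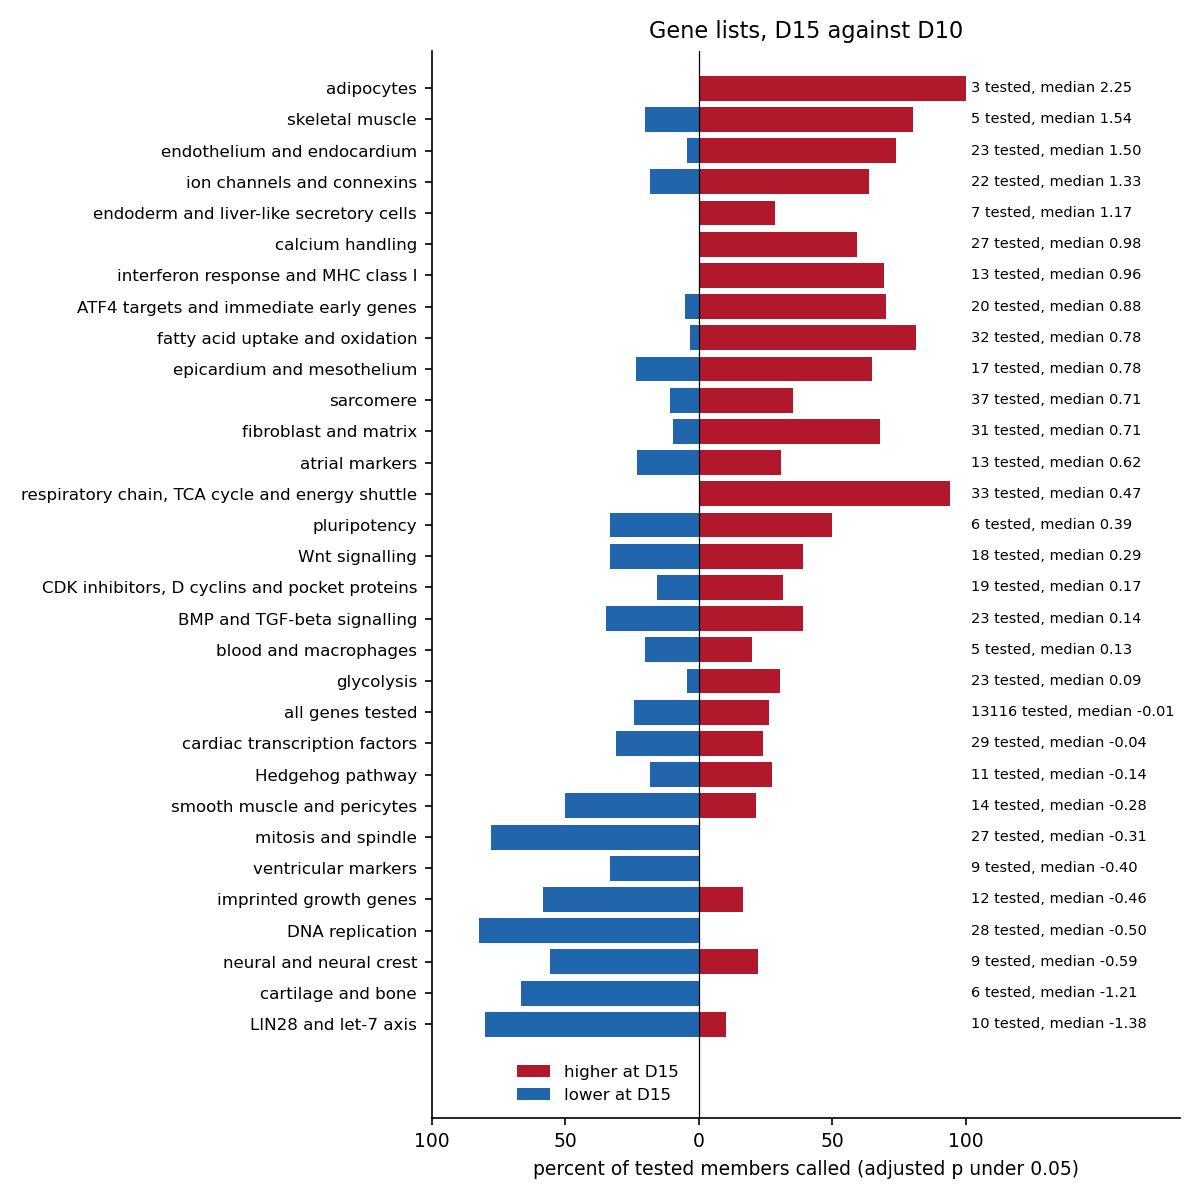
Percent of the tested members of each gene list called higher (red, to the right) or lower (blue, to the left) at D15, with the number tested and the median log2 fold change at the right. Respiratory genes reached 93.9% higher and replication genes 82.1% lower, beside 26.4% and 24.4% of all tested genes.

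Some sarcomere genes were higher at D15, and levels varied widely among libraries of the same day. Of 37 tested genes, 13 were called higher (35.1%) and 4 lower (10.8%), with a median of 0.71. Leaving out 1 library at a time gave 10 to 18 higher, the most without the first D10 library, and fitting the 6 libraries alone gave 9. Myh6, the alpha myosin heavy chain (chromosome 14, 54941921 to 54966927) and 79.8% unique over 50-base stretches, had 2805, 2065 and 1599 CPM at D15, against 1418, 939 and 455 CPM at D10. The ranges did not overlap, yet the difference of 1.20 ± 0.55 was not called (adjusted p = 0.0901, and 0.0412 with limma-voom). Myl7, the atrial light chain, had 1311 ± 334 CPM at D15 and 595 ± 229 CPM at D10 (1.14 ± 0.49, adjusted p = 0.0700). Its adjusted p was 0.0386 both with DESeq2 and with limma-voom. Myh7, the beta myosin heavy chain, had 125 ± 39.9 CPM at D15 and 99.5 ± 53.1 CPM at D10 (adjusted p = 0.571). The whole list took 1.46%, 1.12% and 0.870% of counts in D15 libraries and 1.02%, 0.788% and 0.522% in D10 libraries, so the days overlapped (exact permutation test, two-sided, p = 0.2).

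Among the 13 called higher were Myoz2 and Myom2. Myoz2, a Z-disc protein that binds calcineurin (chromosome 3, 123006206 to 123035015), had 132, 101 and 72.2 CPM at D15, against 2.30, 1.90 and 1.16 CPM at D10 (5.78 ± 0.29, adjusted p = 1.38e-10). Myom2, a protein of the M band, had 51.2, 31.5 and 28.6 CPM at D15, against 1.23, 1.21 and 1.16 CPM at D10 (4.93 ± 0.32, adjusted p = 1.76e-13). On both genes the lowest D15 library stood far above the highest D10 library. Cryab, a chaperone of the Z disc, Trim63, the ubiquitin ligase MuRF1, and Lmod2, which lengthens thin filaments, rose by 1.31 ± 0.08, 1.58 ± 0.25 and 1.77 ± 0.41. Xirp2, a protein of the intercalated disc, was under the expression filter, with 36 counts at D15 and 0 at D10, at least 11.9-fold higher against a floor of 3 counts over the D10 libraries.

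The 4 genes that fell were Acta1, Tnni1, Tpm2 and Des. Acta1, the skeletal alpha actin of the fetal heart, had 2.12, 4.96 and 4.0 CPM at D15, against 9.06, 10.4 and 7.54 CPM at D10 (-1.28 ± 0.30, adjusted p = 0.00134). Tpm2, beta tropomyosin, and Des, the filament protein desmin, fell by 0.27 ± 0.07 and 0.34 ± 0.10. Tnni1, the slow skeletal troponin I of the fetal heart (chromosome 1, 135779434 to 135810989), had 358, 289 and 230.1 CPM at D15, against 513, 454 and 410.2 CPM at D10 (-0.65 ± 0.24, adjusted p = 0.0410). Its adjusted p was 0.117 and 0.0767 without the first or the second D10 library, and 0.0910 and 0.142 without the second or the last D15 library. Tnni3, its cardiac counterpart (chromosome 7, 4518305 to 4524229), had 372, 261 and 217 CPM at D15, against 131, 81.7 and 38.5 CPM at D10 (1.74 ± 0.44, adjusted p = 0.00500).

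Isoform pairs were compared as the share of one gene in the counts of both. Tnni3 made up 50.9%, 47.5% and 48.6% of the summed counts of Tnni3 and Tnni1 in D15 libraries, against 20.4%, 15.2% and 8.58% in D10 libraries. The D15 libraries agreed closely with each other while the D10 libraries were spread. Myh6 made up 94.5 ± 0.245% of Myh6 and Myh7 counts at D15 and 90.5 ± 0.661% at D10. Acta1 made up 0.248 ± 0.137% of Acta1 and Actc1 counts at D15 and 1.27 ± 0.538% at D10. The muscle form Cox6a2 of a cytochrome oxidase subunit made up 32.5 ± 7.39% at D15 and 11.3 ± 6.57% at D10 of its counts and those of the general form Cox6a1. Cox7a1 and Cox8b, muscle forms of 2 further subunits, made up 15.1 ± 4.47% and 6.83 ± 2.63% at D15, against 6.58 ± 2.75% and 1.64 ± 1.35% at D10. For the ventricular light chain Myl2 beside Myl7 the shares overlapped, at 8.14 ± 0.647% at D15 and 8.47 ± 0.553% at D10 (exact permutation test, two-sided, p = 0.6). Each pair whose shares did not overlap had p = 0.1 in the exact permutation test, the smallest that 3 libraries against 3 allow, and 0.1125 adjusted over the 9 pairs. These are shares of counts, not per length, and compare days, not genes. The general oxidase forms are made by all cells. For any of the pairs, a change in the proportion of cell types and a change within cells cannot be told apart.

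**Figure D3:**
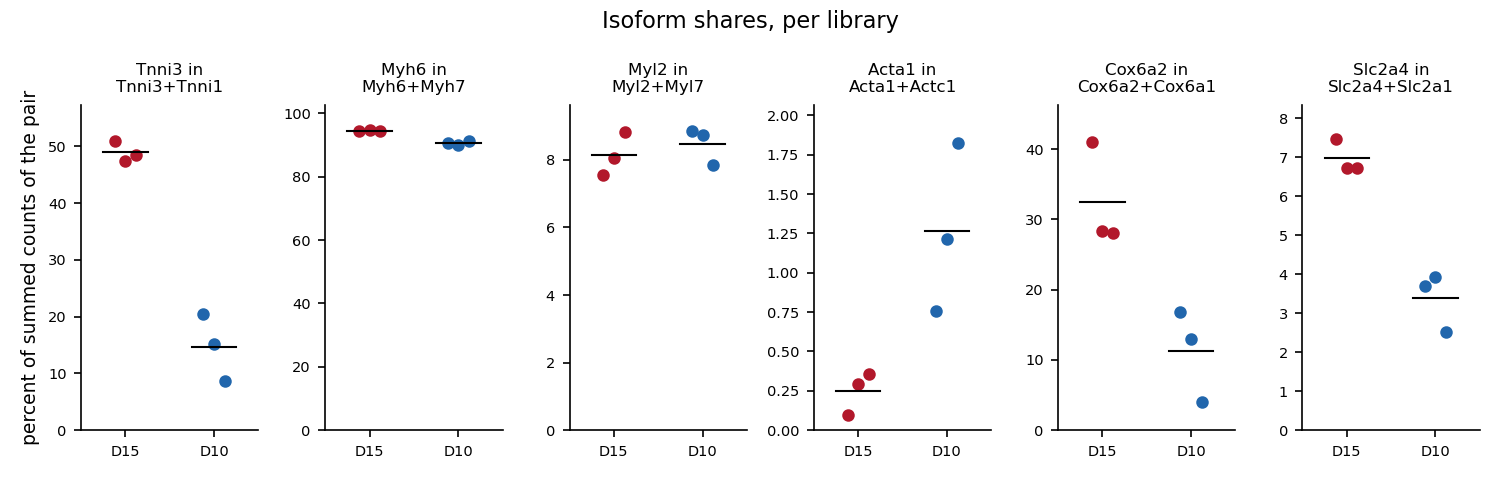
Share of the first gene in the summed counts of each pair, in percent, for D15 libraries (red, left) and D10 libraries (blue, right), with 1 point per library and a line at the mean. Tnni3 reached 47.5% to 50.9% at D15 and 8.58% to 20.4% at D10, while Myl2 overlapped between days.

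Counts per 1000 counts of the sarcomere list were computed for 24 muscle genes. For a gene of the list, its own counts were left out of the denominator. Ckm is not in the list, so its denominator is the whole list. The scale was chosen after the data were seen, and other sarcomere genes that changed are part of its denominator. The days did not overlap for 21 of the 24, with 17 higher and 4 lower at D15, and on the CPM scale the days did not overlap for 56.6% of all tested genes. The 24 were chosen with their values known, so nothing is read from this count. Myoz2 reached 8.14 ± 0.434 per 1000 at D15 and 0.229 ± 0.0112 at D10, and Ckm 9.32 ± 0.752 at D15 and 0.0684 ± 0.0395 at D10. Myh6 had 207 ± 7.63 per 1000 at D15 and 130.4 ± 34.6 at D10. Tnni1 had 24.1 ± 0.789 at D15 and 66.0 ± 15.8 at D10, and Des 19.9 ± 1.94 at D15 and 43.9 ± 16.2 at D10. On this scale the D15 libraries lay close together for each of these genes.

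Most calcium handling genes were higher at D15: 16 of 27 tested were called higher and none lower, with a median of 0.98. Casq2, calsequestrin, the calcium store of the sarcoplasmic reticulum (chromosome 3, 102086415 to 102146514), had 251, 187 and 139.7 CPM at D15, against 11.8, 10.5 and 5.61 CPM at D10 (4.34 ± 0.27, adjusted p = 2.02e-07). Atp2a2, the SERCA2 pump that refills the store (chromosome 5, 122453513 to 122502225), had 3686, 2825 and 2081 CPM at D15, against 1555, 1247 and 832 CPM at D10 (1.24 ± 0.24, adjusted p = 8.61e-04). Every D15 library lay above every D10 library for both genes. Sln, sarcolipin, an inhibitor of that pump, had 34.2 ± 11.3 CPM at D15 and 0.398 ± 0.0584 CPM at D10, an 86.0-fold difference. That fold rests on 7 counts over the D10 libraries. Cacna1g, a T-type calcium channel, rose by 2.50 ± 0.17, S100a1, a calcium sensor of heart muscle, by 1.43 ± 0.14 and Itpr1, the IP3 receptor, by 0.65 ± 0.09. Ryr2, the release channel of the store, had 266 ± 93.6 CPM at D15 and 145 ± 57.9 CPM at D10 and was not called (adjusted p = 0.0868), though without the first D10 library its adjusted p was 0.0403. The whole list took 0.708%, 0.547% and 0.428% of counts at D15 and 0.393%, 0.313% and 0.217% at D10.

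Among ion channel and connexin genes 14 of 22 tested were called higher and 4 lower, with a median of 1.33. Kcnq1, the slow delayed rectifier potassium channel, had 8.35 ± 4.85 CPM at D15 and 0.590 ± 0.249 CPM at D10 (3.81 ± 0.53, adjusted p = 1.33e-06). Kcnj8, the pore of an ATP-sensitive potassium channel, rose by 2.31 ± 0.35. Those that fell were Kcnd3 and Kcna5, channels of the transient outward and ultrarapid potassium currents, by 1.27 ± 0.18 and 0.96 ± 0.16, and the connexin genes Gja1 and Gjc1, by 0.26 ± 0.06 and 0.38 ± 0.10. Hcn4, the pacemaker channel, had 123 ± 4.25 CPM at D15 and 152 ± 30.7 CPM at D10 (adjusted p = 0.0788). Its adjusted p was 0.00189 without the last D10 library and 0.0368 with upper quartile factors.

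Cardiac transcription factor genes were divided: 7 of 29 were called higher (24.1%) and 9 lower (31.0%), near the 26.4% and 24.4% of all genes. Tbx5, which forms the chambers and septa and after which the line is named, had 86.3, 75.0 and 57.6 CPM at D15, against 80.9, 69.8 and 44.3 CPM at D10. The days overlapped (0.16 ± 0.32, adjusted p = 0.709), as they did for Nkx2-5, an early heart factor, at 11.1 ± 3.39 CPM at D15 and 5.69 ± 3.46 CPM at D10 (adjusted p = 0.200). Nfib and Nfia, of the nuclear factor I family, rose by 1.10 ± 0.07 and 1.02 ± 0.10, Mef2a and Mef2d, activators of muscle genes, by 0.96 ± 0.12 and 0.63 ± 0.10, and Tbx20, a chamber factor, by 0.74 ± 0.13. Tbx3, of the conduction system, had 7.38 ± 2.83 CPM at D15 and 2.83 ± 0.36 CPM at D10 (1.35 ± 0.33), and Tead1, a partner of YAP, rose by 0.27 ± 0.09. Hand1, of the early left ventricle (chromosome 11, 57828705 to 57832818), had 6.35, 5.14 and 7.52 CPM at D15, against 70.9, 59.9 and 71.6 CPM at D10 (-3.40 ± 0.26, adjusted p = 8.58e-08). Hand2 fell by 0.82 ± 0.10, Meis2 by 0.71 ± 0.08, and Isl1, a progenitor factor of the second heart field, by 1.71 ± 0.47, to 2.38 ± 1.09 CPM at D15 against 7.70 ± 2.03 CPM at D10.

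Atrial markers were called in both directions, with a median of 0.62, and ventricular markers had a median of -0.40. The atrial list took 0.264 ± 0.0621% of counts at D15 and 0.136 ± 0.0428% at D10, without overlap. Many of these counts came from Myl7, not called in the main fit (22829 counts at D15, 10707 at D10), and from Cav1 (9760 and 1178). The ventricular list took 0.103 ± 0.0135% at D15 and 0.136 ± 0.0257% at D10, with overlap. Most of these counts came from Lbh, also not called in the main fit (13110 counts at D15, 17375 at D10). A share follows the genes with most counts, so neither describes its list as a whole. Of 13 tested atrial markers 4 were higher, among them Sln, Cav1, a coat protein of caveolae also made by vessel and mesothelial cells (3.04 ± 0.11), and Stard10, a lipid transfer protein (1.45 ± 0.14). Those lower were Kcna5, Hey1, a Notch target (-2.66 ± 0.29), and Nppa, atrial natriuretic peptide, at 2.49 ± 0.925 CPM at D15 and 5.57 ± 0.817 CPM at D10 (46.6% of its 50-base stretches unique). Its adjusted p was 0.0509 without the second D15 library. Bmp10, a growth factor of the embryonic chambers, had 0 counts at D15 and 27 at D10, at least 9.04-fold lower against the floor of 3 counts over the D15 libraries. Of 9 tested ventricular markers none was higher and 3 were lower, Hand1, Mpped2 (-2.80 ± 0.17) and Hey2, a Notch target of the compact wall (-1.30 ± 0.27). Myl2 had 136, 111 and 96.7 CPM at D15, against 79.7, 57.5 and 30.9 CPM at D10 (adjusted p = 0.0635). Its adjusted p was 0.0378 without the first D10 library and 0.0228 with limma-voom.

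Genes of fatty acid use were higher at D15, with 26 of 32 called higher (81.3%), 1 lower and a median of 0.78. Acaa2, the last enzyme of the oxidation cycle, had 712, 599.9 and 523 CPM at D15, against 177, 136 and 138 CPM at D10 (2.02 ± 0.12, adjusted p = 2.20e-10). Cd36, which takes up fatty acids, had 189, 163 and 138 CPM at D15, against 39.5, 36.9 and 27.7 CPM at D10 (2.22 ± 0.16, adjusted p = 5.39e-10). For both, every D15 library exceeded every D10 library by a wide margin. Pdk4, a kinase that closes pyruvate dehydrogenase, had 118 ± 18.9 CPM at D15 and 8.40 ± 3.13 CPM at D10, 14.0-fold apart. Acadl and Acadvl, dehydrogenases of long chains, rose by 1.25 ± 0.10 and 1.00 ± 0.10 (73.1% of the 50-base stretches of Acadvl are unique), while Acads, the short-chain enzyme, fell by 0.49 ± 0.10. Ppargc1a, a coactivator of mitochondrial genes, had 50.8 ± 18.5 CPM at D15 and 28.9 ± 10.6 CPM at D10 (adjusted p = 0.10). Beside these genes the endothelium list, whose cells also express Cd36 and Fabp4, took 0.0741 ± 0.00959% of counts at D15 and 0.0460 ± 0.00405% at D10, and its part in their levels was not tested.

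The respiratory chain, citric acid cycle and energy shuttle mostly rose by small steps: 31 of 33 tested genes were called higher (93.9%) and none lower, with a median of 0.47. Mdh2, malate dehydrogenase, had 433, 448 and 396 CPM at D15, against 288, 286 and 269 CPM at D10 (0.60 ± 0.06, adjusted p = 2.55e-09). Pdha1, of pyruvate dehydrogenase, Sdhd, of complex II, and Ndufa4, of cytochrome oxidase, rose by 0.63 ± 0.07, 0.48 ± 0.07 and 0.47 ± 0.07. Ckmt2, mitochondrial creatine kinase, was under the filter with 24 counts at D15 against 3 at D10, a ratio of 7.96 (95% counting interval 2.42 to 41.3, which covers counting error only). The list took 1.09%, 1.00% and 0.904% of counts at D15 and 0.840%, 0.789% and 0.720% at D10.

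Glycolysis genes showed no such common direction, with 7 of 23 higher, 1 lower and a median of 0.09, beside 26.4%, 24.4% and -0.01 over all genes. Without the first D15 library 3 were called higher and 3 lower, and with the 6 libraries fitted alone 3 were higher. The list took 1.04%, 0.888% and 0.772% of counts at D15 and 1.01%, 0.878% and 0.811% at D10. Ldhb, the lactate dehydrogenase subunit of the heart, had 195 ± 15.9 CPM at D15 and 101 ± 21.9 CPM at D10 (0.93 ± 0.16; 79.0% of its stretches unique), and Gpi1 rose by 0.52 ± 0.11. Slc2a4, the insulin-dependent glucose carrier GLUT4, rose by 0.64 ± 0.17 (adjusted p = 0.00223, and 0.0627 with the 6 libraries fitted alone), and Slc2a1, the fetal carrier GLUT1, had 649, 509.7 and 429 CPM at D15, against 709.7, 745 and 719.8 CPM at D10 (-0.45 ± 0.14, adjusted p = 0.0128). Slc2a4 made up 6.97 ± 0.438% of the counts of the pair at D15 and 3.39 ± 0.764% at D10.

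**Figure D4:**
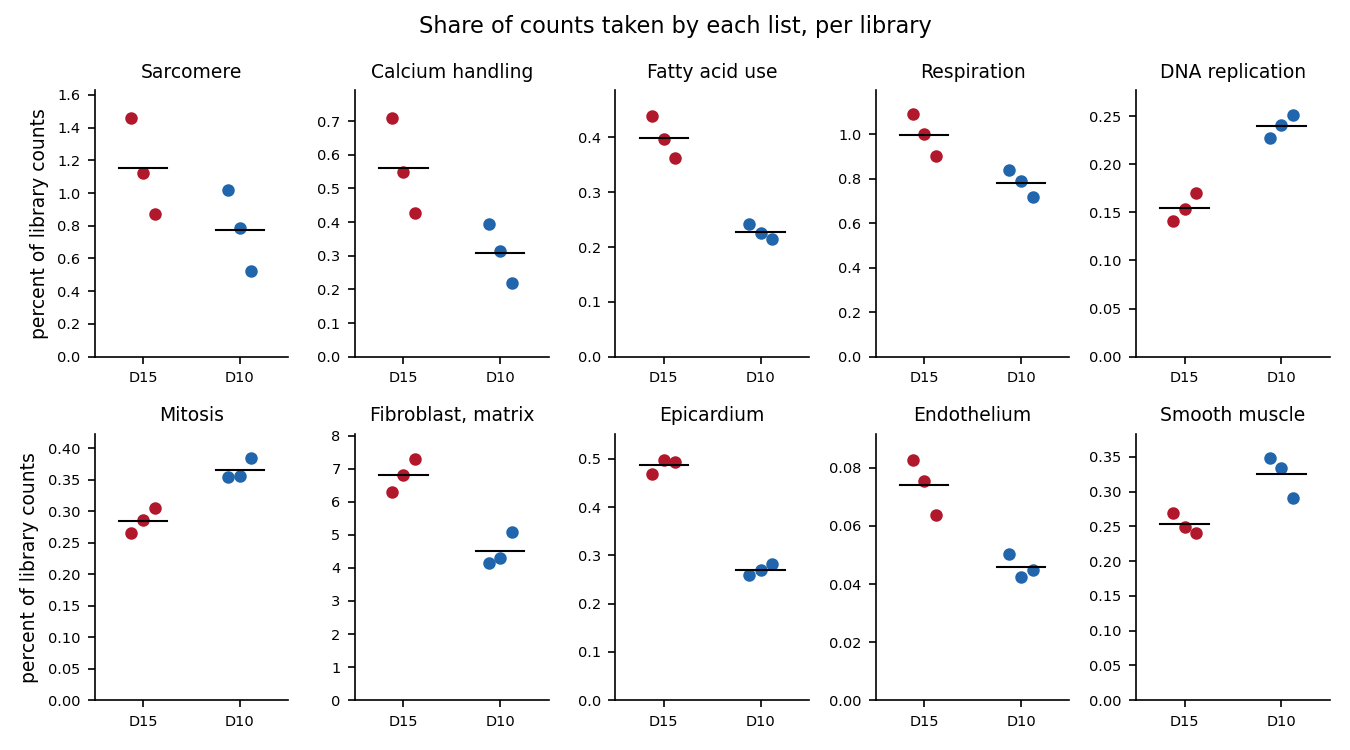
Percent of each library's counts in the genes of 10 lists, for D15 libraries (red, left) and D10 libraries (blue, right), with 1 point per library and a line at the mean of the day. Sarcomere shares overlap between days (0.870% to 1.46% at D15, 0.522% to 1.02% at D10), whereas the other 9 lists shown do not.

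The share of counts was compared for all 30 lists, and 23 did not overlap between days, 17 higher and 6 lower at D15, each with p = 0.1 in the exact permutation test (two-sided, 0.130 adjusted over the 30 lists), again the smallest possible. The D15 library with the highest sarcomere share (1.46%) had the lowest fibroblast share (6.29%), and the D10 library with the highest sarcomere share (1.02%) likewise had the lowest fibroblast share (4.15%). In bulk RNA, fewer cells of a type and less of its RNA per cell cannot be told apart.

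DNA replication genes were lower at D15, each by a modest amount. Of 28 tested genes, 23 were called lower (82.1%) and none higher, with a median of -0.50, and none passed the test against a fold of 2. Mcm5, of the helicase that opens replicating DNA (chromosome 8, 75109569 to 75128439), had 83.5, 92.5 and 104 CPM at D15, against 139, 156 and 173 CPM at D10 (-0.74 ± 0.08, adjusted p = 8.80e-09). Uhrf1, which carries DNA methylation through replication, had 62.5, 70.7 and 88.0 CPM at D15, against 123, 148 and 144 CPM at D10 (-0.91 ± 0.09, adjusted p = 1.23e-08). For both, the highest D15 library was under the lowest D10 library. Mcm2 and Mcm3, of the same helicase, and Lig1, the ligase that joins new DNA, fell by 0.63 ± 0.07, 0.62 ± 0.07 and 0.67 ± 0.08. The list took 0.155 ± 0.0143% of counts at D15 and 0.240 ± 0.0119% at D10.

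Mitosis genes were lower too, by less: 21 of 27 were called lower (77.8%) and none higher, with a median of -0.31, and none passed the test against a fold of 2. Bub1, a kinase of the spindle checkpoint, had 75.5, 75.0 and 80 CPM at D15, against 108, 104 and 116 CPM at D10 (-0.51 ± 0.08, adjusted p = 2.39e-06). Its partner Bub1b, the spindle motors Kif23 and Kif20a and Mybl2, an activator of mitotic genes, fell by 0.37 ± 0.08, 0.41 ± 0.08, 0.41 ± 0.08 and 0.80 ± 0.15 (74.8% of the stretches of Kif20a are unique). Mki67, the proliferation marker Ki-67, had 367, 382 and 422 CPM at D15, against 447, 437 and 496 CPM at D10, a difference of -0.24 ± 0.10 (adjusted p = 0.0493). Its adjusted p was 0.0689 and 0.187 without the first or the last D10 library, and 0.175 and 0.121 without the first or the second D15 library. It was 0.0657 with RLE factors, 0.0528 with DESeq2, 0.0751 with limma-voom and 0.0736 with no filter on low counts.

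Genes that restrain or set the pace of the cycle went both ways, with 6 of 19 higher and 3 lower. Btg2, an antiproliferative gene, had 133, 132 and 185 CPM at D15, against 48.7, 43.3 and 52.0 CPM at D10 (1.65 ± 0.15, adjusted p = 1.42e-08), and the CDK inhibitor gene Cdkn2c rose by 1.07 ± 0.23. Cdkn1b, the inhibitor p27, fell by 0.28 ± 0.07, Trp53inp1, a p53 target, by 0.54 ± 0.08 and Ccnd1, cyclin D1, by 1.35 ± 0.36 (78.4% unique). Cdkn1a, the inhibitor p21, had 131 ± 13.8 CPM at D15 and 104 ± 6.41 CPM at D10 (adjusted p = 0.0567). Its adjusted p was 0.0468 without the last D15 library, 0.0238 with DESeq2, 0.0486 with limma-voom and 0.00822 with the 6 libraries fitted alone. Cdkn1c, p57, had 201 ± 36.6 CPM at D15 and 179.6 ± 9.82 CPM at D10 (adjusted p = 0.267, and 0.0284 without the first D15 library).

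E2F factors are known to switch on replication genes through short sites near the start of transcription, and mitotic genes carry CCAAT boxes and the element TTTGAA that the DREAM complex reads. RefSeq promoters (GRCm38.p6, 250 bases before to 50 after the start, both strands searched) of a gene from each group are shown because the groups fell together, with matches in capitals: for Mcm5 the E2F words TTTCGCGC and GCGCCAAA, the second of which is TTTGGCGC on the other strand and overlaps the first, and for Bub1b the box CCAAT, here as ATTGG on the other strand, and TTTGAA.
Mcm5, chr8:75109259-75109558, plus strand: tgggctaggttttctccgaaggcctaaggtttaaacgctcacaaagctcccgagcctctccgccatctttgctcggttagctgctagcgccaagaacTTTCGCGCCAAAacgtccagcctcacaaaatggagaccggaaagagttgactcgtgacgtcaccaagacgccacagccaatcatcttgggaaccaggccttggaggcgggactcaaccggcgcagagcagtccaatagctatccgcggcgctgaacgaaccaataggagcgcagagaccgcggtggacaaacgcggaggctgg
Bub1b, chr2:118597961-118598260, plus strand: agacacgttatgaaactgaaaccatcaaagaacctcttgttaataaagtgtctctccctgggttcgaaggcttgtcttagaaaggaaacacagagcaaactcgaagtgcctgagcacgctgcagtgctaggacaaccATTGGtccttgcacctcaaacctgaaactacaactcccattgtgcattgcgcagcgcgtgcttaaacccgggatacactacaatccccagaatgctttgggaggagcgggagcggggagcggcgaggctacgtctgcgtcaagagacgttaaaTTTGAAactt
Any of the E2F words TTTCCCGC, TTTCGCGC, TTTGGCGC and TTTGCCGC stood in the promoters of 11 of 22 replication genes (50.0%). The share was 2.61% of all 27025 genes with a promoter, tested or not. TTTGAA stood in the promoters of 17 of 23 mitosis genes (73.9%), against 20.2% of all, and CCAAT in 19 of 23 (82.6%), against 41.1%. Bub1 held CCAAT but not TTTGAA. Over all tested genes matched to a promoter, members of the replication and mitosis lists included, 490 held an E2F word. Of these, 18.4% were called higher and 35.7% lower at D15, against 26.2% and 23.9% of the 9873 without one. For TTTGAA the shares were 24.6% higher and 26.9% lower of 1450 genes, against 26.0% and 24% of the 8913 without it, and for CCAAT 24.3% and 25.5% of 4460 genes, against 27.0% and 23.6% of the 5903 without it. A match is a stretch of letters and not a measured site.

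Fibroblast and matrix genes rose in most cases: 21 of 31 tested were called higher (67.7%) and 3 lower (9.68%), with a median of 0.71. Bgn, the small proteoglycan biglycan (chromosome X, 73483602 to 73495933), had 1091, 1004 and 1050.2 CPM at D15, against 152, 136 and 128 CPM at D10 (2.92 ± 0.08, adjusted p = 2.27e-21). Eln, the elastin gene (chromosome 5, 134702593 to 134747323), had 857, 859.9 and 804 CPM at D15, against 56.8, 37.1 and 34.0 CPM at D10 (4.29 ± 0.16, adjusted p = 5.62e-12). In both genes D15 libraries differed little among themselves and stood far above D10 libraries. Ogn, osteoglycin, Col6a2, of collagen VI, and Mfap4, a microfibril protein, rose by 3.27 ± 0.11, 2.12 ± 0.09 and 1.55 ± 0.09. Col1a1, of collagen I, had 11569 ± 1540.4 CPM at D15 and 7199.9 ± 556 CPM at D10 (0.68 ± 0.14, adjusted p = 8.78e-04). Postn, periostin, which organises collagen in early cushions and matrix, fell by 1.43 ± 0.33, to 338, 342 and 292 CPM at D15 against 662, 726 and 1232 CPM at D10. Fbln2, fibulin 2, and Vim, the filament protein vimentin, fell by 0.46 ± 0.08 and 0.17 ± 0.06. The adjusted p of Vim was 0.0985, 0.0563 and 0.0648 without the second or last D10 library or the last D15 library. The list took 6.80 ± 0.502% of counts at D15 and 4.52 ± 0.505% at D10.

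The epicardial list held large changes in both directions, with 11 of 17 higher and 4 lower. Msln, mesothelin of the outer sheet (chromosome 17, 25748613 to 25754378), had 255, 229.7 and 213 CPM at D15, against 11.1, 10.4 and 13.2 CPM at D10 (4.34 ± 0.15, adjusted p = 7.03e-18). Aldh1a1, a retinaldehyde dehydrogenase, had 366, 332 and 323 CPM at D15, against 23.8, 26.6 and 36.0 CPM at D10 (3.57 ± 0.13, adjusted p = 2.85e-16). Lrrn4, a mesothelial surface protein, rose by 1.65 ± 0.08. The D15 ranges of these 3 genes lay wholly above those of D10. Krt8 and Krt18, the keratin pair of simple epithelia, fell by 2.55 ± 0.11 and 2.09 ± 0.13, to 19.5 ± 1.98 and 19.8 ± 0.748 CPM at D15, against 115 ± 12.4 and 84.5 ± 4.73 CPM at D10 (70.3% of the stretches of Krt8 are unique). Tbx18, an epicardial and sinus horn factor, and Sfrp5, a Wnt antagonist of the early epicardium, fell by 0.93 ± 0.12 and 2.62 ± 0.54. Wt1, the best known epicardial factor, had 239, 263 and 279 CPM at D15, against 239, 239 and 249 CPM at D10 and was not called (0.10 ± 0.07, adjusted p = 0.197).

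Endothelial genes rose: 17 of 23 tested were called higher (73.9%), 1 lower, with a median of 1.5. Pecam1, the junction protein CD31 (chromosome 11, 106654217 to 106750628), had 99.0, 77.5 and 43.2 CPM at D15, against 17.8, 11.1 and 8.70 CPM at D10 (2.52 ± 0.30, adjusted p = 3.93e-06). Flt1, a VEGF receptor, had 46.8, 32.4 and 27.0 CPM at D15, against 7.68, 3.97 and 3.48 CPM at D10 (2.77 ± 0.25, adjusted p = 6.33e-10). The first D15 library was the highest for both, and the lowest D15 library still exceeded every D10 library. Esam, Cldn5 and Fli1, junction genes and an ETS factor of endothelium, rose by 2.07 ± 0.26, 2.23 ± 0.32 and 1.91 ± 0.28, and Npr3, a natriuretic peptide receptor of the endocardium, by 1.15 ± 0.13. Tek, the receptor TIE2, was the exception and fell by 0.79 ± 0.17, to 75.2, 89.0 and 103 CPM at D15 against 138, 145 and 182 CPM at D10.

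Smooth muscle and pericyte markers fell more often than they rose, 7 against 3 of 14 tested, with a median of -0.28. Acta2, the smooth muscle actin that immature heart muscle also makes, had 741, 669 and 555 CPM at D15, against 1396, 1279.8 and 955 CPM at D10 (-0.89 ± 0.14, adjusted p = 1.35e-04). Notch3, a receptor of mural cells, fell by 1.41 ± 0.10. Mylk, the kinase of the myosin light chain, rose by 2.98 ± 0.10, to 481 ± 31.8 CPM at D15 against 60.7 ± 3.87 CPM at D10, and Smtn, smoothelin, and Cspg4, the pericyte proteoglycan NG2, rose by 1.19 ± 0.07 and 0.80 ± 0.15.

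The LIN28 proteins keep the let-7 microRNAs from maturing in early embryos, and let-7 represses growth and timing genes, the LIN28 genes among them, through sites in their 3′ UTRs. Of 10 tested members of this axis 8 were called lower (80%) and 1 higher, with a median of -1.38. MicroRNAs were not measured in these poly(A) libraries. The let-7 family shares a seed, bases 2 to 8, shown in capitals in 4 of its 9 mature sequences from RefSeq, because the sites below are its complement.
mmu-let-7a-5p: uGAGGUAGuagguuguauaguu
mmu-let-7b-5p: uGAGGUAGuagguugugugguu
mmu-let-7g-5p: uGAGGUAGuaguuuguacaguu
mmu-miR-98-5p: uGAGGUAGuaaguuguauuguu
A 24-base stretch around a match to that seed (CTACCTC, in capitals) is given for each of 4 genes that fell, with GENCODE M21 coordinates on GRCm38, all on the minus strand.
Lin28a, chr4:134005184-134005207: agcctgttgaaCTACCTCattttt
Lin28b, chr10:45381017-45381040: gggcgggaagtCTACCTCatgcaa
Hmga2, chr10:120364219-120364242: acattcaatttCTACCTCagcatc
Igf2bp1, chr11:95961773-95961796: tgcgaagtaaaCTACCTCaaggtg

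The longest annotated 3′ UTR held 2 such matches in Lin28a, 4 each in Lin28b, Hmga2 and Igf2bp1, 1 each in Igf2bp3 and Igf2bp2 and none in Mycn, against at least 1 in 12.2% of 12676 tested genes with a UTR. Lin28a had 0.177, 0.354 and 0.320 CPM at D15, against 7.06, 7.60 and 7.93 CPM at D10 (-4.63 ± 0.33, adjusted p = 1.14e-12), and Lin28b 1.41, 1.42 and 1.76 CPM at D15, against 20.1, 20.4 and 17.2 CPM at D10 (-3.63 ± 0.22, adjusted p = 2.35e-14). Hmga2, a chromatin protein of growing tissue, had 40.2, 35.8 and 39.5 CPM at D15, against 165, 146 and 146 CPM at D10 (-1.98 ± 0.07, adjusted p = 5.33e-19). In Lin28b and Hmga2 the libraries of each day lay close together and the days far apart. For Lin28a every D15 value lay under every D10 value, but those at D15 rest on 5 counts over its libraries, too few to judge their spread. The RNA-binding protein genes Igf2bp1 and Igf2bp3 fell by 1.46 ± 0.07 and 1.31 ± 0.06, while Igf2bp2, of the same family and with 1 match, rose by 0.34 ± 0.07, to 285 ± 3.59 CPM at D15 against 225 ± 19.1 CPM at D10. Among all tested genes with 3 or more matches, members of this list included, 13 of 29 were called lower (44.8%) and 4 higher (13.8%), among the 211 with 2 or more 28.0% were called lower and 21.8% higher, and among those with exactly 1 match 26.1% were called lower and 26.1% higher. Of the 11130 with no match 24.4% were called lower and 27.2% higher.

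Of 12 imprinted growth genes 7 were lower and 2 higher at D15, with 4 higher without the first D15 library and 1 higher with upper quartile factors or with the 6 libraries fitted alone. Peg10, a retrotransposon-derived gene of the placenta (chromosome 6, 4747306 to 4760517), had 361, 332 and 359.9 CPM at D15, against 2787, 2868 and 3069.7 CPM at D10 (-3.05 ± 0.07, adjusted p = 3.40e-24). Mest had 341 ± 71.8 CPM at D15 and 969 ± 113 CPM at D10 (-1.51 ± 0.13; 78.8% unique), and Peg3, Grb10, an adaptor that dampens insulin signalling, and Ndn fell by 0.92 ± 0.12, 0.57 ± 0.06 and 0.56 ± 0.08. Igf2, the fetal growth factor, rose by 0.31 ± 0.05, at 26800.5 ± 2387 CPM at D15 and 21610.1 ± 333 CPM at D10 (37.9% of its stretches unique), and H19, the noncoding RNA beside it, rose by 0.19 ± 0.05 (adjusted p = 0.00415, 0.0510 with upper quartile factors and 0.0842 with the 6 libraries alone). Both rises were small beside the falls of Peg10 and Mest.

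**Figure D5:**
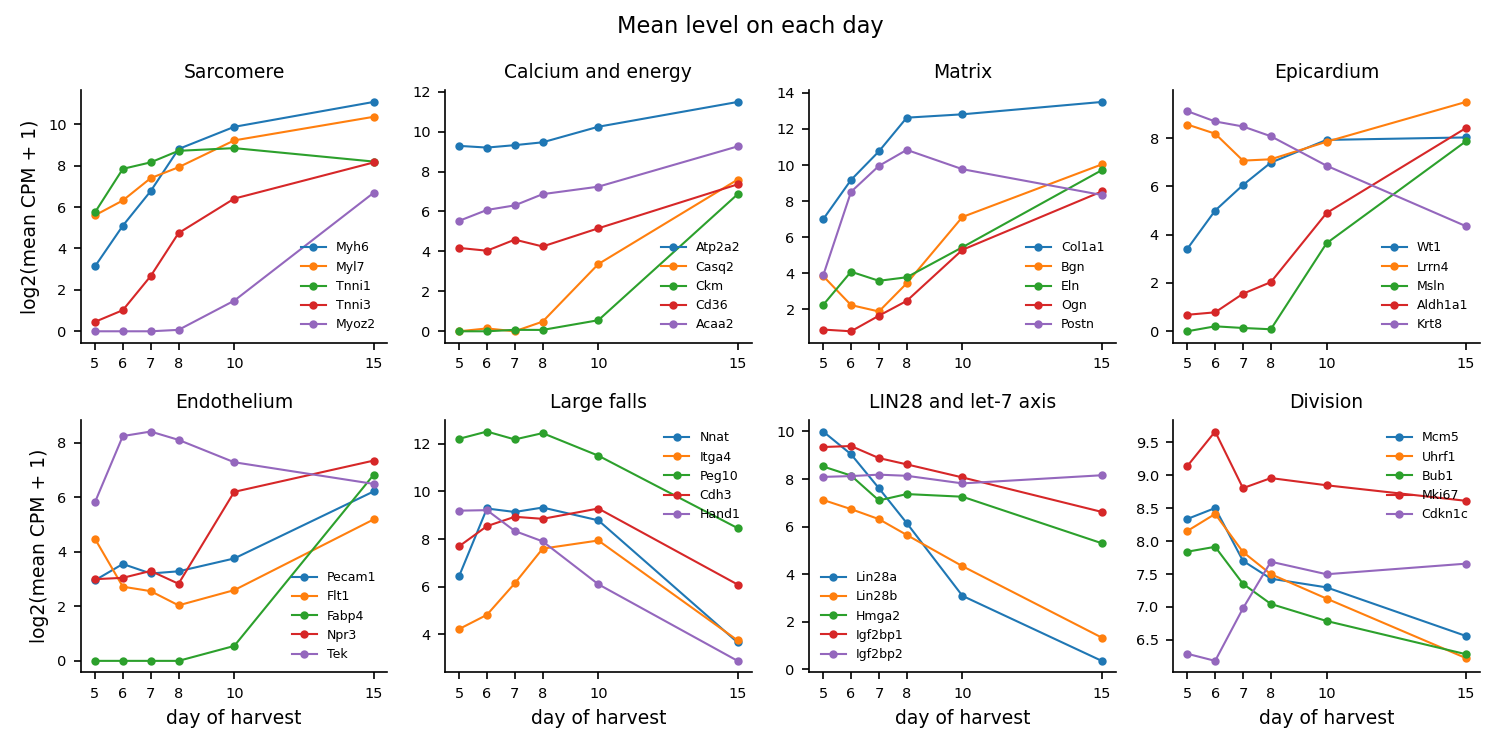
Mean level, as log2(mean CPM + 1), of 40 genes in 8 groups on each of the 6 harvest days, with a line per gene. Myoz2, Ckm and Fabp4 stayed near zero through D8 and rose between D10 and D15, while Lin28a and Lin28b fell at every step and Wt1 changed little after D10.

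Of 11 tested Hedgehog pathway genes 3 were called higher (27.3%) and 2 lower (18.2%), beside 26.4% and 24.4% of all genes. The count of lower genes was 1 without the last D10 or the second D15 library, and 4 without the last D15 library or with upper quartile factors. Ptch1, the receptor and a target of the pathway, had 18.7, 11.5 and 7.84 CPM at D15, against 17.3, 14.7 and 8.32 CPM at D10, with overlapping ranges (-0.11 ± 0.30, adjusted p = 0.779). Gli1, its other standard target, had 2 counts at D15 and 3 at D10, and Hhip, a decoy receptor, 0 counts at D15 and 3 at D10, under what this depth can resolve. Gli2, an activating GLI factor, fell by 0.50 ± 0.09, to 39.0 ± 1.86 CPM at D15 against 55.3 ± 2.13 CPM at D10. Gli3 had 102 ± 14.7 CPM at D15 and 121 ± 2.26 CPM at D10 (adjusted p = 0.0947). Its adjusted p was 0.0130 without the last D15 library, 0.0344 with upper quartile factors and 0.0307 with the 6 libraries fitted alone. The coreceptor genes Boc, Gas1 and Cdon rose by 1.38 ± 0.12, 0.88 ± 0.13 and 0.52 ± 0.14. Hhat, which attaches palmitate to the ligand, fell by 0.62 ± 0.20, with an adjusted p of 0.0636 without the last D10 library and 0.0712 without the second D15 library.

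BMP and TGF-beta genes were divided, with 9 of 23 higher and 8 lower. Among ligands, Bmp7, Bmp2 and Tgfb2 fell by 1.62 ± 0.15, 1.09 ± 0.23 and 1.53 ± 0.08. Bmp5, at 10.9 ± 5.20 CPM at D15 and 37.0 ± 5.33 CPM at D10, also fell, and 54.0% of its stretches are unique. Among targets of TGF-beta, Tgfbi, a secreted adhesion protein, had 70.5 ± 13.1 CPM at D15 and 307 ± 44.3 CPM at D10 (-2.12 ± 0.11).

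Wnt ligands and antagonists were divided, with 7 of 18 genes higher and 6 lower. Wnt5a, a ligand of the beta-catenin-independent branch (chromosome 14, 28504750 to 28527448), had 495, 577 and 522 CPM at D15, against 77.8, 70.6 and 69.0 CPM at D10 (2.87 ± 0.09, adjusted p = 3.49e-21). Wnt2b and the feedback inhibitor gene Nkd1 rose by 1.48 ± 0.15 and 1.10 ± 0.12. Wnt2 and Wnt11 fell by 1.95 ± 0.31 and 0.74 ± 0.11. Of the secreted antagonists, Sfrp1 had 150.1 ± 14.0 CPM at D15 and 564 ± 39.8 CPM at D10 (-1.91 ± 0.16), while Sfrp2 had 254 ± 53.4 CPM at D15 and 83.3 ± 4.85 CPM at D10 (1.61 ± 0.11). Dkk1 and Dkk2 fell by 3.0 ± 0.46 and 3.65 ± 0.58, to 0.786 ± 0.393 and 0.402 ± 0.114 CPM at D15.

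Genes of MHC class I and the interferon response were higher, 9 of 13 tested with none lower and a median of 0.96. Bst2, the antiviral protein tetherin, had 141, 158 and 138 CPM at D15, against 4.45, 3.80 and 5.80 CPM at D10 (4.97 ± 0.25, adjusted p = 2.51e-12). H2-K1, an MHC class I chain, had 104, 95.2 and 85.0 CPM at D15, against 23.0, 21.9 and 20.3 CPM at D10 (2.12 ± 0.12, adjusted p = 3.36e-15). Every D15 value of both genes lay far above those of D10. Tapbp, of the peptide loading complex, Ifitm3, an antiviral membrane protein, and B2m, the common light chain, rose by 1.64 ± 0.12, 1.82 ± 0.16 and 0.79 ± 0.08 (76.8% of the stretches of Tapbp are unique). The leukocyte marker Ptprc had no count on either day, while the macrophage receptor gene Csf1r, described below, was called higher. The part of immune cells in these levels was not tested.

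Targets of the amino acid stress factor ATF4 and immediate early genes were mostly higher, 14 of 20 with 1 lower and a median of 0.88. Atf5, an ATF4 target, had 104, 90.6 and 88.5 CPM at D15, against 23.0, 21.9 and 21.1 CPM at D10 (2.10 ± 0.14, adjusted p = 7.41e-12). Trib3, a pseudokinase that restrains ATF4, had 24.2, 16.0 and 11.8 CPM at D15, against 1.54, 0.518 and 1.35 CPM at D10 (3.89 ± 0.38, adjusted p = 2.98e-09). Asns, asparagine synthetase, had 53.0, 41.7 and 34.7 CPM at D15, against 15.4, 16.7 and 11.4 CPM at D10 (1.56 ± 0.16, adjusted p = 9.58e-08). The first D15 library was the highest for all 3, and no D15 value overlapped those of D10. Phgdh, which starts serine synthesis and of whose stretches 52.2% are unique, fell by 0.53 ± 0.13. Fos and Junb, immediate early genes that handling of cells can switch on, rose by 2.46 ± 0.28 and 2.07 ± 0.28.

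The ATF4 response element joins parts of a C/EBP and an ATF site, searched here as TGATGNAA on both strands. The RefSeq promoters of Asns and Trib3 (GRCm38.p6, same window) are shown with the match in capitals because both genes rose and hold it. In Trib3 it lies on the other strand. Atf5 also rose, and its promoters held no match.
Asns, chr6:7693160-7693459, minus strand: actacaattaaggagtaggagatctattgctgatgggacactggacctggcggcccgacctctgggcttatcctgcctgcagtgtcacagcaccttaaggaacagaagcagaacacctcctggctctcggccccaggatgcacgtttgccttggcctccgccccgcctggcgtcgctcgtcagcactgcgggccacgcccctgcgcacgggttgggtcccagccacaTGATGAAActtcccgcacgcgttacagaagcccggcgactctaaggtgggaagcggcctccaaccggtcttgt
Trib3, chr2:152344011-152344310, minus strand: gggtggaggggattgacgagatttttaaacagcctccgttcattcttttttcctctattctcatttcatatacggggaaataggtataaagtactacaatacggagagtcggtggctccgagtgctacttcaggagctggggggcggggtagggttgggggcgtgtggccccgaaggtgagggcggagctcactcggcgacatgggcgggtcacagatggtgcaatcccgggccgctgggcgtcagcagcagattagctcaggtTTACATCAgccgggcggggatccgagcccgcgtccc
This element stood in the promoters of 5 of 12 ATF4 targets (41.7%), against 4.51% of all 27025 genes with a promoter, tested or not. Of 273 tested genes with it, ATF4 targets included, 33.3% were called higher and 19% lower at D15, against 25.6% and 24.6% of 10090 without it.

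The part of further cell types in the results above was not tested. Blood genes took 0.00283 ± 0.000386% of counts at D15 and 0.00317 ± 0.000271% at D10, with 14 of 19 under the filter, and Csf1r, a macrophage receptor, was the gene called higher, at 15.6 ± 1.27 CPM at D15 and 7.81 ± 1.98 CPM at D10, while Runx1, a factor of blood stem cells, fell by 0.96 ± 0.24. Myh8, the perinatal myosin of skeletal muscle, had 72.2, 86.8 and 129 CPM at D15, against 2.92, 0.518 and 0.967 CPM at D10 (5.95 ± 0.49, adjusted p = 1.49e-04, and 7.0 log2 units without the first D10 library), and Myl1 and Tnnt3 of fast fibres rose by 1.91 ± 0.46 and 1.54 ± 0.26. The regulators of skeletal muscle Myod1, Myf5, Pax3 and Pax7 had no count, while Myog had 7 counts at D15 and 2 at D10. Of the Z-disc genes of fast fibres, Actn3 fell by 0.84 ± 0.14. Cartilage genes fell in 4 of 6 cases, among them Sox9, the chondrocyte and cushion factor, at 1.63 ± 0.671 CPM at D15 and 26.3 ± 1.94 CPM at D10 (-3.98 ± 0.38). Of 9 neural genes 5 were called lower and 2 higher, with 3 lower without the first D10 or the second D15 library and 2 lower with the 6 libraries fitted alone. Stmn2 rose by 1.04 ± 0.25 and Nes by 0.36 ± 0.12, the call of Nes being lost without the second D10 library (adjusted p = 0.0817) or the first D15 library (0.0707). Tubb3 fell to 1.04 ± 0.661 CPM at D15 against 5.77 ± 0.611 CPM at D10 (-2.46 ± 0.41, and -3.06 without the second D15 library), and Pax6 had 1 count at D15 and 31 at D10, a ratio of 31.1 (95% counting interval 5.19 to 1269). The pluripotency list had 3 of 6 tested genes called higher (50.0%) and 2 lower (33.3%), beside 26.4% and 24.4% of all tested genes. Klf4 and Klf2, also expressed in endothelium, rose by 2.08 ± 0.22 and 2.12 ± 0.34, and Tfcp2l1 was the other gene higher. Those lower were Tdgf1, at -2.90 to -1.81 without 1 library at a time, and Dnmt3b, at -0.63 to -0.30. The call of Dnmt3b was lost with the 6 libraries fitted alone (adjusted p = 0.0890). Pou5f1, the gene of OCT4, had 1 count on each day. Sox17, of endoderm and endothelium, rose by 3.10 ± 0.53. Afp, the fetal liver and yolk sac protein, had 1.59, 24.3 and 1.28 CPM at D15, against 9.21, 0.345 and 1.16 CPM at D10, so that 1 library on each day stood apart (adjusted p = 0.339, and 0.0487 without the first D10 library).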

How the data were processed

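Poly(A) RNA libraries from mouse embryonic stem cell cultures were read as 50-base single-end reads, per the labels' protocols. STAR and mm10 are named in the submitters' processing notes; the counting tool, annotation and use of strand are not given in the sources used here. Deposited values are raw read counts per gene, which the authors did not normalize. Of 21 count columns, 3 matched no sample and were not used. Column names give the day but not which titled replicate, so libraries are named in the order of the totals given above.

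Counts of 18 libraries were scaled by TMM and fitted with edgeR 4.0.16 in R 4.3.3 (1 coefficient per day, filterByExpr with a minimum count of 10, 13116 genes, 12 residual degrees of freedom), and D15 was tested against D10 by the quasi-likelihood test. At the depth of 5257601 to 6831683 counts per library, the same steps on simulated data for D15 against D10 (13116 genes, 200 changed) recovered 49.3%, 80.6% and 98.5% of genes changed 1.5-fold, 2-fold and 4-fold, with 2.56% false calls. Far fewer genes were changed in the simulation than the 6662 called here, so these rates need not hold for this comparison. Intervals and floors cover counting error only. Shares were compared by exact permutation tests. Other settings tried were DESeq2 1.42.0, limma-voom (limma 3.58.1), scaling by RLE or by upper quartile, other filters, the 6 libraries alone, a test against a fold of 2, and leaving out each library.

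Named genes were the 15 largest rises and falls among called genes with a mean of at least 3 log2 CPM, non-overlapping days, counts in every library of the higher day and no predicted symbol; a fixed set; and, per list, up to 5 members with the smallest p plus members called against most of the list. A few others of low count were named after their values were seen. Some genes that this rule names are not reported here. Members and lists were chosen with earlier results of these data known. Coordinates, exon overlaps and the share of 50-base stretches found once in the transcripts come from GENCODE M21 (GRCm38); promoters and microRNAs come from RefSeq (GRCm38.p6).

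Exons of these named genes overlap another gene's: Acadvl, Atf5, Atp2a2, Bmp5, Ccnd1, Cdkn1a, Cdkn1c, Cebpa, Cebpb, Ckm, Ckmt2, Cryab, Csf1r, Des, Eln, Enpp2, Fgfr3, Gas1, Gli1, Gli3, Gpi1, H19, Hand2, Hhip, Hmga2, Igf2, Igf2bp1, Igf2bp3, Itga4, Itpr1, Junb, Kcnd3, Kcnq1, Kif20a, Krt8, Lig1, Lin28a, Ltbp2, Mef2a, Mef2d, Mest, Mfap4, Myh6, Myh7, Myl2, Mylk, Nfia, Nnat, Notch3, Nppa, Npr3, Pappa2, Pdha1, Runx1, Sfrp2, Shisa3, Slc2a1, Smtn, Sox17, Tapbp, Tbx18, Tbx3, Tfcp2l1, Tgfb2, Tnni3, Trf, Wnt11 and Wnt5a.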

Additional observations from a re-analysis of the deposited data

How the results depend on the processing

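No call changed direction under any alternative, and 5791 to 6547 of the 6662 calls were kept outside the test against a fold of 2, which called 774 genes higher and 351 lower. Genes called higher numbered 3556 with RLE factors, 3047 with upper quartile factors, 3374 with DESeq2, 3507 with limma-voom, 3495 with no filter, 3447 at 1 CPM in 3 libraries and 3146 with the 6 libraries alone, and those called lower 3080, 3826, 2965, 3097, 3195, 3253 and 2976 in the same order. Leaving out 1 library gave 3112 to 3295 higher and 2829 to 3078 lower. Of 227 named genes, 16 lost their call and 14 gained one under at least 1 alternative other than the fold-2 test. Values that changed sign without 1 library were not called with all 6: log2 fold changes of Afp (-1.37 to 3.58), Myh7 (-0.0314 to 0.74), Ptch1 (-0.50 to 0.15), Tal1 (-0.55 to 0.87) and Tbx5 (-0.0500 to 0.35), and differences in share of counts, in percentage points, for cardiac transcription factors (-0.00698 to 0.0278), ion channels (-0.00194 to 0.0146) and glycolysis (-0.0702 to 0.0651). Hbb-bh1, with 1 count in these libraries, ranged from -2.49 to 0. The cause was not tested. No paired analysis was possible because the columns carry a running number that matches no label. Depth left 6308 genes with no count in these 6 libraries.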
